A study of Mus musculus with 4 samples.

Results

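The nuclear genes for the subunits of oxidative phosphorylation were followed in immature T cells that carry both CD4 and CD8 (double-positive or DP cells), taken from normal thymus and from Notch1-driven tumours. They were taken as every gene whose symbol begins with Nduf followed by a, b, c, s or v, equals Sdha, Sdhb, Sdhc, Sdhd or Cyc1, or begins with Uqcr, Cox4 to Cox8 or Atp5. The rule reads gene names and no measured value, but it was written with earlier results of these data known. It took 180 probe sets, the groups of short oligonucleotides that report 1 transcript on the array, out of 34945 with a single gene symbol. These probe sets stand for 91 of the 18193 genes measured, and 51 of the 91 genes have more than 1. By symbol, 44 genes belong to complex I, 4 to complex II, 9 to complex III, 17 to complex IV and 17 to complex V. A further 10 probe sets matched the symbols but carried several, and they were left out. Of the 91 genes, 8 are Ndufaf assembly factors, which help to build complex I and are not part of the finished enzyme.

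The study hybridized RNA from 4 samples to Affymetrix Mouse 430 2.0 arrays. The normal group held 2 samples of DP cells from the thymus of wild-type C57/BLACK6 mice. The tumour group held 2 samples of DP cells from a peripheral tumour (thymoma) that over-expresses Notch1-IC, the active intracellular piece of the Notch1 receptor, with genotype T-ALL (T-cell acute lymphoblastic leukaemia) and the same C57/BLACK6 background. The sources used here name neither the promoter or vector behind Notch1-IC nor the age of the animals, and they do not say whether the 2 samples of a group came from separate animals. The p-values therefore measure the spread between these samples only, and that spread may be technical. One label calls the normal samples tumour cells too, while their title, source and genotype call them normal. Tumour and normal cells also came from different sites, and site, any batch and transformation cannot be told apart.

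Oxidative phosphorylation is the last stage of respiration. Complex I takes electrons from NADH and complex II takes them from succinate, ubiquinone carries them to complex III, cytochrome c carries them to complex IV, and complex IV hands them to oxygen. Complexes I, III and IV pump protons across the inner mitochondrial membrane, and complex V, the ATP synthase, lets them flow back and makes ATP. All complexes except complex II also need subunits encoded by mitochondrial DNA, so the nuclear genes described here give only a part of each enzyme. Thymocytes and leukaemic T cells both respire, and dividing T cells run glycolysis beside respiration.

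Values are log2 of the deposited intensity. For a gene with several probe sets the one with the highest mean was used, a difference is tumour minus normal on the log2 scale, and a gene is said to have risen or fallen where limma with a trend and robust prior gave an adjusted p below 0.05 (Benjamini-Hochberg over all 18193 genes). The deposited arrays share nearly one distribution of values, so every difference is relative to the other genes on the array.

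Subunit genes moved in both directions and mostly by little. Of the 91 genes, 27 rose (29.7%) and 22 fell (24.2%), against 17.3% and 12.4% of all genes. Most members are bright, however, and bright genes pass the test more often: of the 1433 genes with a mean log2 of at least 10, 35% rose and 32.4% fell, against 21 (30.4%) and 18 (26.1%) of the 69 members at that level. The share of members that moved was therefore near that of other bright genes. The median difference was -0.04 for the members and 0.02 for the bright genes, and the median size of a difference, sign aside, was 0.34 for the members and 0.41 for the bright genes. Of the 91 genes, 86 lay on all 4 arrays above background, the highest value among 27 bacterial control probe sets without spike. The tumour arrays both lay above the normal arrays for 40 members, both below for 38, and the groups overlapped for 13. Over all 18193 genes the counts were 6123, 4799 and 7271. At a mean log2 of at least 10 they were 637, 591 and 205 of the 1433 genes and 30, 30 and 9 of the 69 members. The groups thus separated about as often for members as for other bright genes. Of the 91 members 9 differed by 1 or more (9.89%), against 34.5% of all genes. At a mean log2 of at least 10 the shares were 4.35% of members and 14.2% of the 1433 genes. Of the 9, 3 were Ndufaf assembly factors, 3 were tissue isoforms of complex IV, and the others were Ndufv2, Ndufs4 and Atp5o. The isoforms Cox7b2 and Cox8b were not above background on any array.

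Replicates were close: the median absolute difference of members was 0.0787 between the normal arrays and 0.0705 between the tumour arrays, against 0.339 between the groups. As the replicates may be technical, this does not show that small differences exceed the spread between animals. The counts of rises and falls depend on how the spread is estimated. With limma's default prior, which gives dim and bright genes one spread, 1 member rose and 3 fell, against 4.17% and 2.2% of all genes. Leaving out 1 array at a time gave 16 to 19 genes that rose and 19 to 23 that fell, and 14 of the 27 rises and 18 of the 22 falls kept their call whichever array was left out.

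The direction of the rises also depends on the scale. When arrays were scaled to the 14 spiked control probe sets (BioB, BioC and BioD), the whole distribution moved down in the tumour arrays. The median moved from 0.09 to -0.51 over all genes, and to -0.64 for the members. On that scale 4 members rose and 66 fell. Of the 27 rises 18 turned negative and 9 stayed positive, and all 22 falls stayed negative. That outcome was fixed in advance, because the scaling lowers every difference by the same 0.60. It does not show that falls are firmer than rises. The shares of all genes called on that scale are not given here. Counts on it, here and per complex, therefore describe the common shift and not a trait of the members. The statements below hold for the deposited scale, and the value with spike scaling is given where it turns a named gene's sign.

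**Figure D1:**
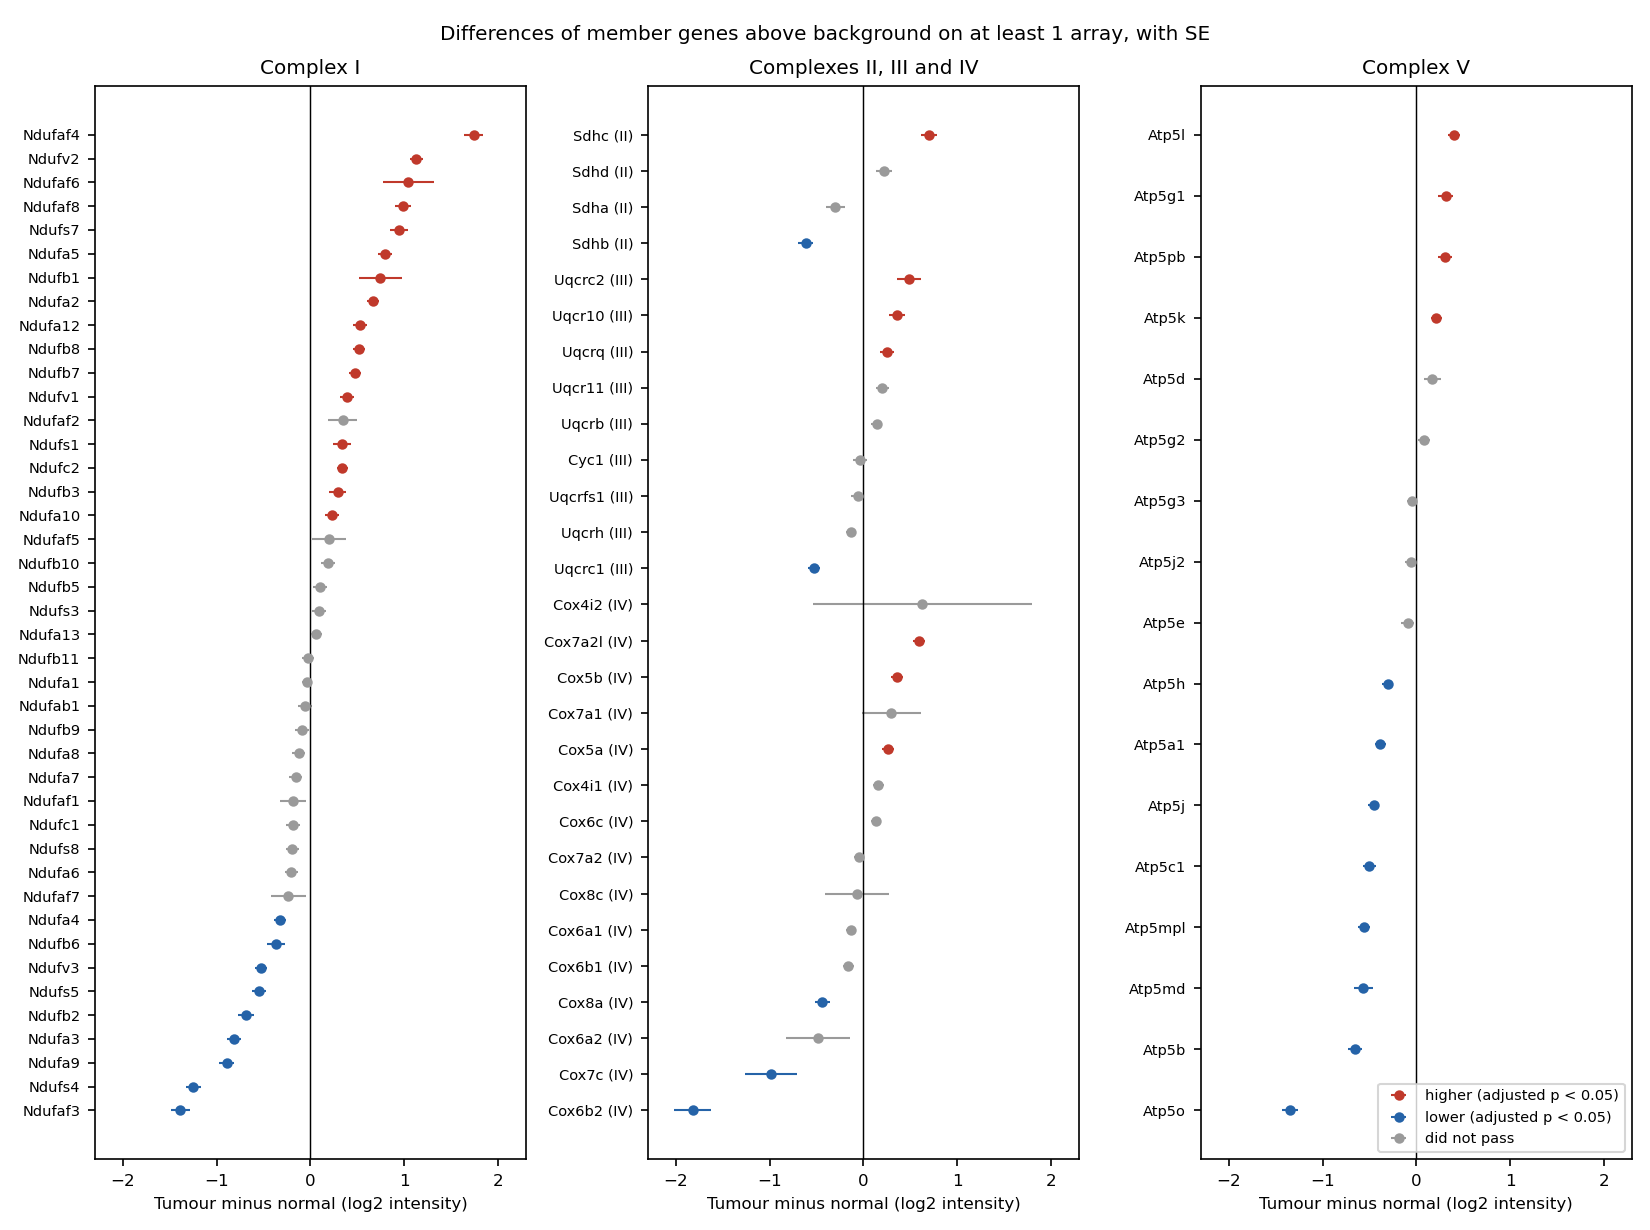
Difference in log2 intensity, tumour minus normal, for the 87 members above background on at least 1 array, one row per gene in 3 panels (complex I, complexes II to IV, complex V), with bars for the SE and red or blue for genes that rose or fell on the deposited scale. Points lie on both sides of 0 in every complex. With spike scaling, which lowers every difference by the same 0.60, 18 of the 27 rises fall below 0.

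Several motifs known from promoters of mitochondrial genes were counted in the members' promoters, as a description with no test. RefSeq (GRCm38.p6) gave 79 promoters, 250 bases before to 50 after the start site, for 74 of the 91 genes, and the same window for 32851 promoters of all genes. Each motif was searched on both strands. The NRF1 motif, GCGCA and GCGC with any one base between them, stood in 22.8% of the members' promoters and 4.6% of all. The ETS motif CCGGAAG, the core bound by GABP, stood in 24.1% and 8.86%, and the YY1 motif AAGATGGC in 12.7% and 2.75%. The E-box CACGTG, which Myc and other basic helix-loop-helix factors bind, stood in 8.86% and 7.15%. Among members that rose, 4 of 22 promoters held the E-box, as did 0 of 22 among those that fell and 3 of 35 among those not called. The 4 are Atp5g1, Atp5l, Atp5pb and Ndufv1. All turned negative with spike scaling, which was fixed in advance because their rises were below 0.60. On the deposited scale Ndufv1 has opposed probe sets, and Atp5g1 and Atp5pb did not pass when some single arrays were left out. The contrast rests on few genes, of which Ndufv1, Atp5g1 and Atp5pb carry these limits, and it was not tested. A match describes the letters only. The promoters of the assembly factor with the largest rise (Ndufaf4), an ATP synthase gene that rose (Atp5l) and the largest falls of structural genes in complexes I and V (Ndufs4 and Atp5o) are shown here, picked after their values were seen, with every match to these motifs in capitals.
Ndufaf4, chr4:24897833-24898132, plus strand, NRF1 motif: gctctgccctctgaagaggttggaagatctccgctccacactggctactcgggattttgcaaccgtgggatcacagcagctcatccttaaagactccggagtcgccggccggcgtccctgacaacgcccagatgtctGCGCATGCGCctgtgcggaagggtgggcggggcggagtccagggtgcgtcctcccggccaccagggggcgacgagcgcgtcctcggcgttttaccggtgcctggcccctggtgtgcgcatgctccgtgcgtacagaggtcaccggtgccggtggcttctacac
Atp5l, chr9:44920693-44920992, minus strand, ETS motif, E-box, ETS motif: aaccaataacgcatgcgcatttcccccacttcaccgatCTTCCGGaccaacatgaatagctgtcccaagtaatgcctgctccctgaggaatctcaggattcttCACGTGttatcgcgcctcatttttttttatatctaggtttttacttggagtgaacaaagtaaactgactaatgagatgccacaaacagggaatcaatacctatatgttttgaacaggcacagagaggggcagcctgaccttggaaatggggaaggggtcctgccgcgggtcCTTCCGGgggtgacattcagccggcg
Ndufs4, chr13:114388045-114388344, minus strand, YY1 motif: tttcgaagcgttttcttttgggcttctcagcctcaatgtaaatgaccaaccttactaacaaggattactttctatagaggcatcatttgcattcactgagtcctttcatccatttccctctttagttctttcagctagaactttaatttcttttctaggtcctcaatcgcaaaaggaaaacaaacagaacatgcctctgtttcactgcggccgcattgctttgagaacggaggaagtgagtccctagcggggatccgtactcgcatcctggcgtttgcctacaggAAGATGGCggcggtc
Atp5o, chr16:91931581-91931880, minus strand, NRF1 motif: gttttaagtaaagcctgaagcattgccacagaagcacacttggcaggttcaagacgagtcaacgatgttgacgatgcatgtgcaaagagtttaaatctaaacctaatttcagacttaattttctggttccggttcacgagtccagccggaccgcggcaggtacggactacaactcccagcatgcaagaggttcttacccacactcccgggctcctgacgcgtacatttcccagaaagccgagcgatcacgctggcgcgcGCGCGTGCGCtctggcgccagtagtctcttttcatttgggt

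In complex I, 16 of the 44 genes rose (36.4%) and 9 fell (20.5%), with a median difference of 0.02. With spike scaling the counts were 4 and 27. The counts on the deposited scale for each complex and its parts, here and below, stand against 17.3% of all genes that rose and 12.4% that fell. Among genes with a mean log2 of at least 10 these shares were 35% and 32.4%. The 34 structural genes gave 13 rises and 7 falls. The core subunits are shared with bacteria and include those that carry the redox centres. Of the nuclear-encoded ones, 4 of the 6 measured rose, 0 fell, and their median was 0.36. One of the 4 is Ndufv1, whose probe sets disagree. Ndufs8, counted as not called, had 3 of its 5 probe sets above background called lower, the farthest at -1.28 (Ndufs8 was singled out after its values were seen). ND5, a complex I subunit encoded by mitochondrial DNA and not among the 6, fell by 1.16. The 28 accessory subunits split into 9 rises and 7 falls, with a median of -0.05. By position, the NADH-binding module had 5 rises and 2 falls among 7 genes, the ubiquinone module 2 rises and 1 fall among 7, and the membrane arm 6 rises and 4 falls among 20.

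Ndufv2, which holds an iron-sulfur cluster beside the NADH site, had the largest rise of a structural subunit. It read 11.04 and 11.15 in normal cells and 12.24 and 12.20 in tumour cells, a difference of 1.13 ± 0.07 (SE, n = 2 per group) or 2.19-fold (adjusted p = 2.136e-06). All of its 3 probe sets rose, by 0.32 to 1.13. Ndufs7 carries the last iron-sulfur cluster before ubiquinone. It read 10.19 and 9.93 against 11.02 and 10.98, a rise of 0.94 ± 0.10 (adjusted p = 5.521e-05), and its second probe set rose by 0.36. For both genes the groups lay clearly apart on every array.

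Ndufv1, the flavoprotein that binds NADH and FMN, was one of 3 members whose probe sets disagreed. The probe set that represents it read 10.16 and 10.14 against 10.54 and 10.54, a rise of 0.39 ± 0.08 (adjusted p = 0.0034), and a second rose by 0.48. The third probe set read 10.38 and 10.29 against 9.83 and 9.70, and fell by 0.56. With spike scaling the difference of the representing probe set was -0.21. Because its probe sets were called in opposite directions, no direction can be given for Ndufv1.

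Among accessory subunits of the matrix arm, Ndufa5 and Ndufa2 rose and Ndufs4 and Ndufa9 fell. Ndufa5, a subunit of the ubiquinone module, read 10.10 and 10.12 in normal cells and 10.91 and 10.91 in tumour cells, a rise of 0.80 ± 0.07 (adjusted p = 3.067e-05). Without probe sets that can bind several transcripts it read 0.38 higher (adjusted p = 0.0949), and with spike scaling 0.20 higher (adjusted p = 0.0703). Ndufa2, a thioredoxin-fold subunit of the NADH module, read 11.39 and 11.42 against 12.07 and 12.07 (adjusted p = 2.957e-05). With spike scaling its difference was 0.06 and did not pass. Ndufb1, a small membrane-arm subunit, was dimmer, at 5.995 and 5.75 against 6.72 and 6.52. Its rise of 0.74 ± 0.23 (adjusted p = 0.0350) was lost without any one of the arrays, with adjusted p from 0.0695 without normal replicate 1 and 0.0736 without tumour replicate 2 to 0.1596 without tumour replicate 1 and 0.1599 without normal replicate 2, and also with spike scaling, where it was 0.14.

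Ndufs4, an accessory subunit of the NADH module whose loss causes a form of Leigh syndrome, had the largest fall of a structural subunit of complex I. It read 10.98 and 11.05 in normal cells and 9.82 and 9.72 in tumour cells, and fell by 1.25 ± 0.08 or 2.38-fold (adjusted p = 3.165e-06). The groups lay far apart on this probe set. Its 3 other probe sets were dimmer, between 5.62 and 8.16, and differed by -0.02, 0.01 and 0.01, so the mean over its 4 probe sets gave -0.31 (adjusted p = 0.1368). Ndufa9, which sits at the joint of the arms, read 10.91 and 10.90 against 9.97 and 10.05, and fell by 0.89 ± 0.08 (adjusted p = 1.902e-05).

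Further accessory subunits completed the largest falls. Ndufa3, in the membrane arm, read 12.18 and 12.31 against 11.49 and 11.37, and fell by 0.81 ± 0.07 (adjusted p = 2.584e-05). Ndufb2, also in the membrane arm, read 10.15 and 10.25 against 9.53 and 9.49, and fell by 0.69 ± 0.09 (adjusted p = 0.0001989). Ndufs5, a membrane-arm subunit with cysteine pairs, fell by 0.55 ± 0.08 (adjusted p = 0.0004412). A second probe set of Ndufb2 fell by 0.65, and its mean with the third, dim one was -0.81 (adjusted p = 0.134). At the other end, Ndufa1 and Ndufb11 differed by only -0.04 and -0.03, and Ndufb4 was not above background on any array. Of the other probe sets of Ndufb11 one differed by -1.06 and one by -0.06, and their mean with the brightest was called lower, at -0.38 (adjusted p = 0.0047).

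The Ndufaf assembly factors had a median absolute difference of 0.67 over 8 genes against 0.35 over the 34 structural genes of complex I. They are dimmer, with a median log2 level of 7.71 against 11.1, and the contrast between the classes was not tested. The 22 members with a mean log2 under 10, these 8 among them, had a nearly equal median absolute difference of 0.66. Of the 8, 3 rose and 1 fell. Ndufaf4 and Ndufaf3, which work as partners in early assembly, went in opposite directions. Ndufaf4 read 7.91 and 7.92 in normal cells and 9.64 and 9.68 in tumour cells, a rise of 1.74 ± 0.10 or 3.34-fold (adjusted p = 1.749e-06), and its second probe set rose by 1.07. Ndufaf3 read 9.67 and 9.63 in normal cells and 8.29 and 8.24 in tumour cells, and fell by 1.39 ± 0.10 or 2.62-fold (adjusted p = 5.378e-06). For both genes the replicates nearly coincided and the groups lay far apart.

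Ndufaf8, the small partner of Ndufaf5, rose from 9.21 and 9.12 to 10.18 and 10.13, by 0.99 ± 0.09 (adjusted p = 2.407e-05). Without probe sets that can bind several transcripts it was 0.35 higher (adjusted p = 0.1988). Ndufaf5, which modifies Ndufs7, differed by 0.19 (adjusted p = 0.5033). Ndufaf6 read 5.48 and 6.13 against 6.66 and 7.04, a rise of 1.04 ± 0.27 (adjusted p = 0.0168) that did not pass when normal replicate 1 (adjusted p = 0.1233) or tumour replicate 2 (adjusted p = 0.1379) was left out, or with spike scaling (0.44). Ndufaf1, Ndufaf2 and Ndufaf7, which act in membrane-arm assembly, late assembly and methylation of a core subunit, differed by -0.18, 0.34 and -0.24 and did not pass. Ndufa4, named for complex I but found in complex IV, read 12.04 and 11.96 against 11.63 and 11.72, and fell by 0.32 ± 0.07 (adjusted p = 0.0044) but did not pass without tumour replicate 1 (adjusted p = 0.0770). Its hypoxia-induced relative Ndufa4l2 was not above background on any array.

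Complex II, which also serves the citric acid cycle, had 1 rise (25%) and 1 fall (25%) among 4 genes by brightest probe set. Sdhb, the iron-sulfur subunit, read 11.37 and 11.18 in normal cells and 10.66 and 10.65 in tumour cells, and fell by 0.62 ± 0.08 (adjusted p = 0.0003147). Sdhc, a membrane anchor, read 9.54 and 9.63 against 10.29 and 10.28, a rise of 0.70 ± 0.08 (adjusted p = 0.0001576), and the groups of both genes lay apart. The rise of Sdhc rests on that probe set and scale: a dimmer one differed by -0.13, their mean gave 0.29 (adjusted p = 0.1734) and spike scaling gave 0.10. Sdha, the flavoprotein, differed by -0.30 (adjusted p = 0.0541), and by -0.46 without normal replicate 2. Its other probe sets above background on all arrays differed by 0.26 and -0.70, and neither passed. Sdhd, the other anchor, differed by 0.22 (adjusted p = 0.0754), and by -0.38 with spike scaling. Its second probe set rose by 1.44, and the mean over both rose by 0.83 (adjusted p = 0.0082).

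By brightest probe set, complex III had 3 rises (33.3%) and 1 fall (11.1%) among 9 genes, with a median of 0.14. One of the rises is Uqcrc2, with opposed probe sets. With spike scaling the complex had 0 rises and 8 falls. Its redox subunits changed little: Cyc1, cytochrome c1, differed by -0.04 and Uqcrfs1, the Rieske iron-sulfur protein, by -0.06, and neither passed. Uqcrc1, a large core protein on the matrix side, fell from 11.51 and 11.49 to 10.98 and 10.97, by 0.52 ± 0.07 (adjusted p = 0.0002221). Its partner Uqcrc2 read 11.03 and 11.46 against 11.64 and 11.83 on one probe set, a rise of 0.49 ± 0.13, and on the other it read 11.38 and 11.31 against 11.06 and 10.99, and fell by 0.32. The rise was 0.27 without normal replicate 1, 0.39 without tumour replicate 2 and -0.11 with spike scaling. Because its probe sets were called in opposite directions, no direction is given for Uqcrc2.

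The small subunits Uqcr10 and Uqcrq rose by 0.36 ± 0.08 (adjusted p = 0.0087) and 0.25 ± 0.08 (adjusted p = 0.0335), and turned to -0.24 and -0.35 with spike scaling. As means over their probe sets they differed by 0.05 (adjusted p = 0.8222) and 0.11 (adjusted p = 0.8741). Uqcr10 did not pass without normal replicate 2 (adjusted p = 0.0595), tumour replicate 1 (adjusted p = 0.0889) or tumour replicate 2 (adjusted p = 0.0627). Uqcrq did not pass without any one array, with adjusted p of 0.1063 and 0.1121 without normal replicates 1 and 2 and of 0.0661 and 0.2499 without tumour replicates 1 and 2.

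In complex IV, 3 of 17 genes rose (17.6%) and 3 fell (17.6%), and with spike scaling 0 rose and 11 fell. By their brightest probe sets, ubiquitous subunits held close to 0, with a median absolute difference of 0.16 over 9 genes. They are very bright, with a median log2 level of 12.73, and the 23 members at a mean log2 of 12 or more had the same 0.16. Other probe sets differed more, as one of Cox6a1 fell by 0.88 and one of Cox6c rose by 0.87. Cox4i1, the large regulatory subunit, read 12.82 and 12.79 against 12.89 and 13.03 and did not pass (adjusted p = 0.0793), with -0.44 under spike scaling. Cox6a1, Cox6b1 and Cox7a2 differed by -0.14, -0.16 and -0.04 and did not pass (adjusted p = 0.0515, 0.0759 and 0.606), while their means over probe sets were called lower, at -0.51, -0.24 and -0.31. Without normal replicate 2, Cox6b1 fell by 0.22 (adjusted p = 0.0352).

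Cox5a and Cox5b, neighbouring subunits of the matrix side, rose a little. Cox5a read 12.68 and 12.52 against 12.85 and 12.88 (adjusted p = 0.0116), with 3 of 3 probe sets higher, and did not pass without normal replicate 2 (adjusted p = 0.0681), tumour replicate 1 (adjusted p = 0.0844) or tumour replicate 2 (adjusted p = 0.1249). Cox5b read 12.43 and 12.35 against 12.82 and 12.68 (adjusted p = 0.0022) on an _x_at probe set, a class that can cross-hybridize, and did not pass without tumour replicate 1 (adjusted p = 0.0548). Represented by its brightest probe set outside the _x_at and _s_at classes, Cox5b differed by -0.19 (adjusted p = 0.0636). With spike scaling the differences were -0.34 for Cox5a and -0.25 for Cox5b.

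Cox8a and Cox7c fell. Cox8a, the ubiquitous form of the smallest subunit, read 11.65 and 11.48 against 11.18 and 11.08, and fell by 0.44 ± 0.08 (adjusted p = 0.0021). Cox7c read 6.12 and 6.195 against 5.30 and 5.04 (adjusted p = 0.0237), on a dim probe set, and did not pass without normal replicate 1 (adjusted p = 0.107), normal replicate 2 (adjusted p = 0.1335) or tumour replicate 2 (adjusted p = 0.0825). Cox7a2l, also called SCAF1, ties complexes III and IV into supercomplexes, and C57BL/6 mice carry a shortened form of it. It read 11.74 and 11.71 in normal cells and 12.35 and 12.28 in tumour cells, a rise of 0.59 ± 0.06 (adjusted p = 5.828e-05) that became -0.01 with spike scaling.

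Of the 7 tissue isoforms of complex IV, 1 passed the test. Cox6b2, the testis form of Cox6b1, read 7.52 and 7.38 in normal cells and 5.63 and 5.62 in tumour cells, and fell by 1.82 ± 0.20 or 3.53-fold (adjusted p = 8.687e-05), the largest fall of any member. Both normal arrays lay well above both tumour arrays, and all 4 were above background. Cox6a2 and Cox7a1, the heart and skeletal muscle forms, differed by -0.48 and 0.30 and did not pass. Cox8c, another testis form, differed by -0.07. Cox7b2 and Cox8b were not above background on any array, and Cox4i2, the lung form, was above it on 1 normal array only, so their differences are not read.

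In complex V falls outnumbered rises: 8 of 17 genes fell (47.1%) and 4 rose (23.5%), with a median of -0.09. Of the 1433 genes with a mean log2 of at least 10, 32.4% fell and 35% rose, and of all genes 12.4% and 17.3%. With spike scaling, which lowers every difference by 0.60, all 17 fell. Whether the complexes differ from each other was not tested. In the catalytic F1 head 3 of 5 genes fell and 0 rose by their brightest probe set, and one of the 3 is Atp5a1, whose other probe sets rose. Atp5b, the catalytic beta subunit, read 12.33 and 12.51 in normal cells and 11.73 and 11.79 in tumour cells, and fell by 0.66 ± 0.07 (adjusted p = 9.294e-05). Atp5c1, the central-stalk gamma subunit, read 12.70 and 12.62 against 12.23 and 12.09, and fell by 0.50 ± 0.07 (adjusted p = 0.0003147). Atp5a1, the alpha subunit that alternates with beta, read 12.24 and 12.17 against 11.82 and 11.83 on its brightest probe set, and fell by 0.38 ± 0.06. It rose by 0.24 and 1.25 on 2 others, and the mean over all gave a rise of 0.37 (adjusted p = 0.0198). No direction is given for Atp5a1.

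Atp5o, the oligomycin-sensitivity subunit that joins the peripheral stalk to the F1 head, changed most in complex V. It read 12.01 and 11.95 in normal cells and 10.75 and 10.52 in tumour cells, and fell by 1.34 ± 0.09 or 2.54-fold (adjusted p = 3.105e-06). Both tumour arrays lay more than 1 below both normal arrays. Its second probe set, at 8.32 and 8.94 against 8.40 and 8.84, differed by -0.01. Atp5md and Atp5mpl, small subunits at the membrane where synthase dimers form, fell by 0.57 ± 0.10 (adjusted p = 0.0019) and fell by 0.56 ± 0.07 (adjusted p = 0.0001588). Over the 9 stalk and membrane genes, 5 fell and 3 rose.

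The rises in complex V were small and all turned negative with spike scaling. Atp5l, subunit g, read 11.41 and 11.41 against 11.82 and 11.81, a rise of 0.40 ± 0.06 (adjusted p = 0.0008067), or -0.20 with spike scaling. Atp5pb, peripheral-stalk subunit b, rose by 0.31 ± 0.07 (adjusted p = 0.0106) on an _s_at probe set, which can cross-hybridize, and differed by -0.03 on the other, and it did not pass without normal replicate 1 (adjusted p = 0.0886) or tumour replicate 2 (adjusted p = 0.1482). Atp5k, subunit e, rose by 0.21 ± 0.06 (adjusted p = 0.0232) but did not pass without normal replicate 1 (adjusted p = 0.0685), normal replicate 2 (adjusted p = 0.0852), tumour replicate 1 (adjusted p = 0.221) or tumour replicate 2 (adjusted p = 0.0806). With spike scaling Atp5pb was at -0.29 and Atp5k at -0.39.

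The 3 genes for the c-ring, whose proteins are identical once imported, were near 0 except one. Atp5g1 read 10.15 and 10.08 against 10.43 and 10.42, a rise of 0.31 ± 0.08 (adjusted p = 0.0129) that did not pass without normal replicate 2 (adjusted p = 0.0671), tumour replicate 1 (adjusted p = 0.0905) or tumour replicate 2 (adjusted p = 0.0881) and was -0.29 with spike scaling. Atp5g2 differed by 0.08 (-0.52 with spike scaling) and Atp5g3 by -0.05, and neither passed. Atp5j2, subunit f, differed by -0.06 on its brightest probe set, while its mean over probe sets fell by 0.88 (adjusted p = 0.0011).

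**Figure D2:**
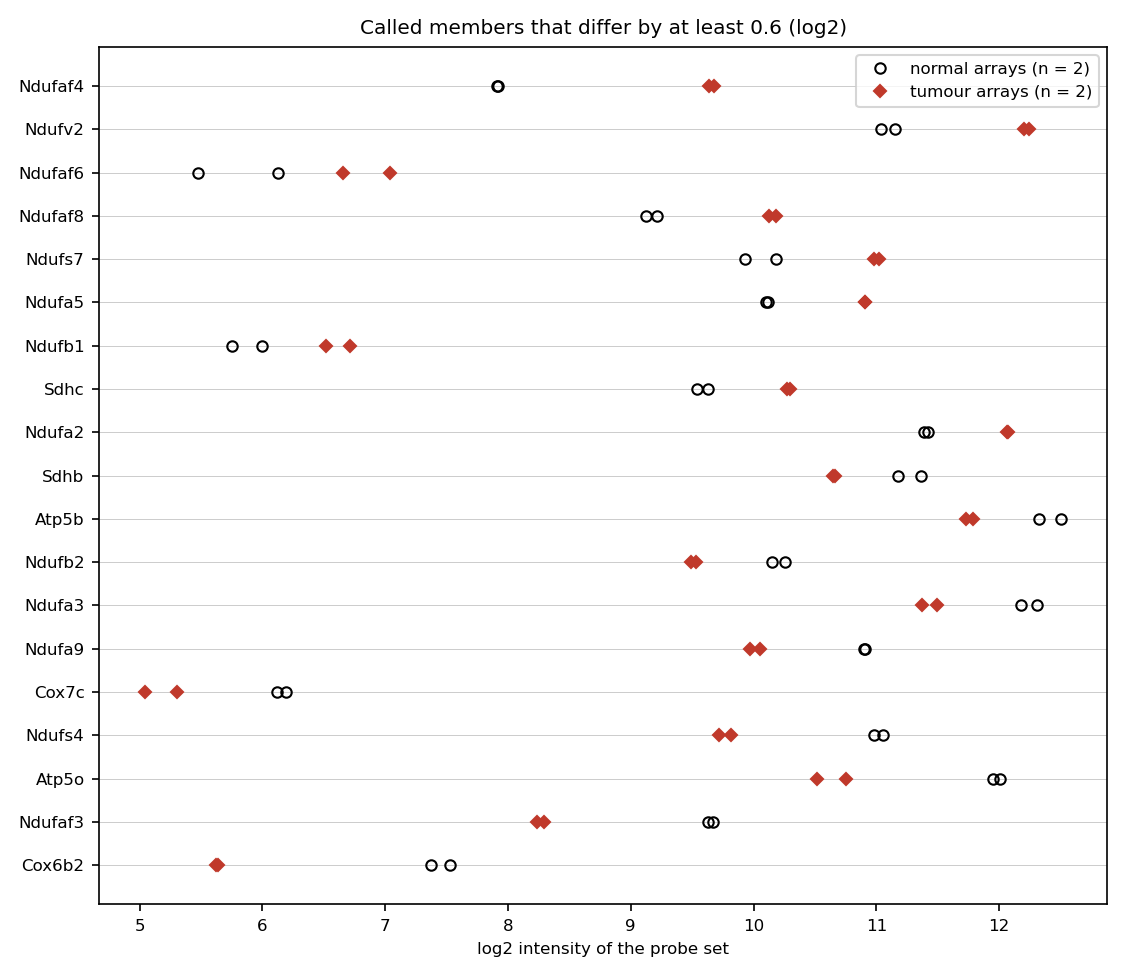
Log2 intensity on each of the 4 arrays for the 19 called members that differed by 0.6 or more on the deposited scale, one row per gene, with open circles for normal and red diamonds for tumour arrays. Replicates nearly coincide for most genes, and the groups lie apart in both directions, from Cox6b2 and Ndufaf3 (lower in tumour) to Ndufv2 and Ndufaf4 (higher).

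Probe sets of the same gene often gave different answers. Of all 180 probe sets, 44 rose (24.4%) and 42 fell (23.3%), against 11.3% and 11.5% of all 45037 probe sets. Most members are bright, and shares of equally bright probe sets are not given here. For 45 genes with at least 2 probe sets above background on all arrays, the probe sets of a gene spanned a median of 0.553, and 12 genes had one call on all of them. Opposite calls were made for 3 of the 45 (6.67%), against 351 of 4373 genes (8.03%) on the whole array. Of the 93 member probe sets whose name ends in plain _at, which match a single transcript, 25 fell and 12 rose. Of the 39 in the _a_at class, which match several transcripts of one gene, 9 fell and 17 rose. The shares called in each class on the whole array are not given here, so these counts are not read as a trait of the members. Within a gene, the plain _at probe sets lay below the others for 27 of 33 members (81.8%), by a median of 0.39. On the whole array the same held for 1289 of 2095 genes (61.5%), by a median of 0.20. The ratio of 3' to 5' signal, a measure of RNA quality, also differed between groups: for actin it was 1.20 to 1.28 in normal and 2.46 to 2.53 in tumour arrays, and for Gapdh 0.90 to 0.91 and 1.84 to 1.85. Its part in these differences was not tested.

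Averaging a gene's probe sets, dim ones included, ended the call of further named genes. Atp5g1 was then at 0.45 (adjusted p = 0.4255), Atp5k at 0.17 (adjusted p = 0.0602), Atp5pb at 0.14 (adjusted p = 0.1612) and Cox7c at -1.94 (adjusted p = 0.0671). Of the genes with opposed probe sets, Ndufv1 was at 0.10 (adjusted p = 0.3458) and Uqcrc2 at 0.08 (adjusted p = 0.5121). Atp5c1 did not pass without _x_at and _s_at probe sets (-1.25, adjusted p = 0.3023). Among the related genes described next, the same averaging left Coa7 at -0.57 (adjusted p = 0.3905), Polrmt at 0.20 (adjusted p = 0.4052), Tefm at 0.55 (adjusted p = 0.0545) and Slc25a4 at 0.56 (adjusted p = 0.3631), and spike scaling left Ssbp1 at 0.15 (adjusted p = 0.2763) and Polg2 at 0.13 (adjusted p = 0.6075).

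**Figure D3:**
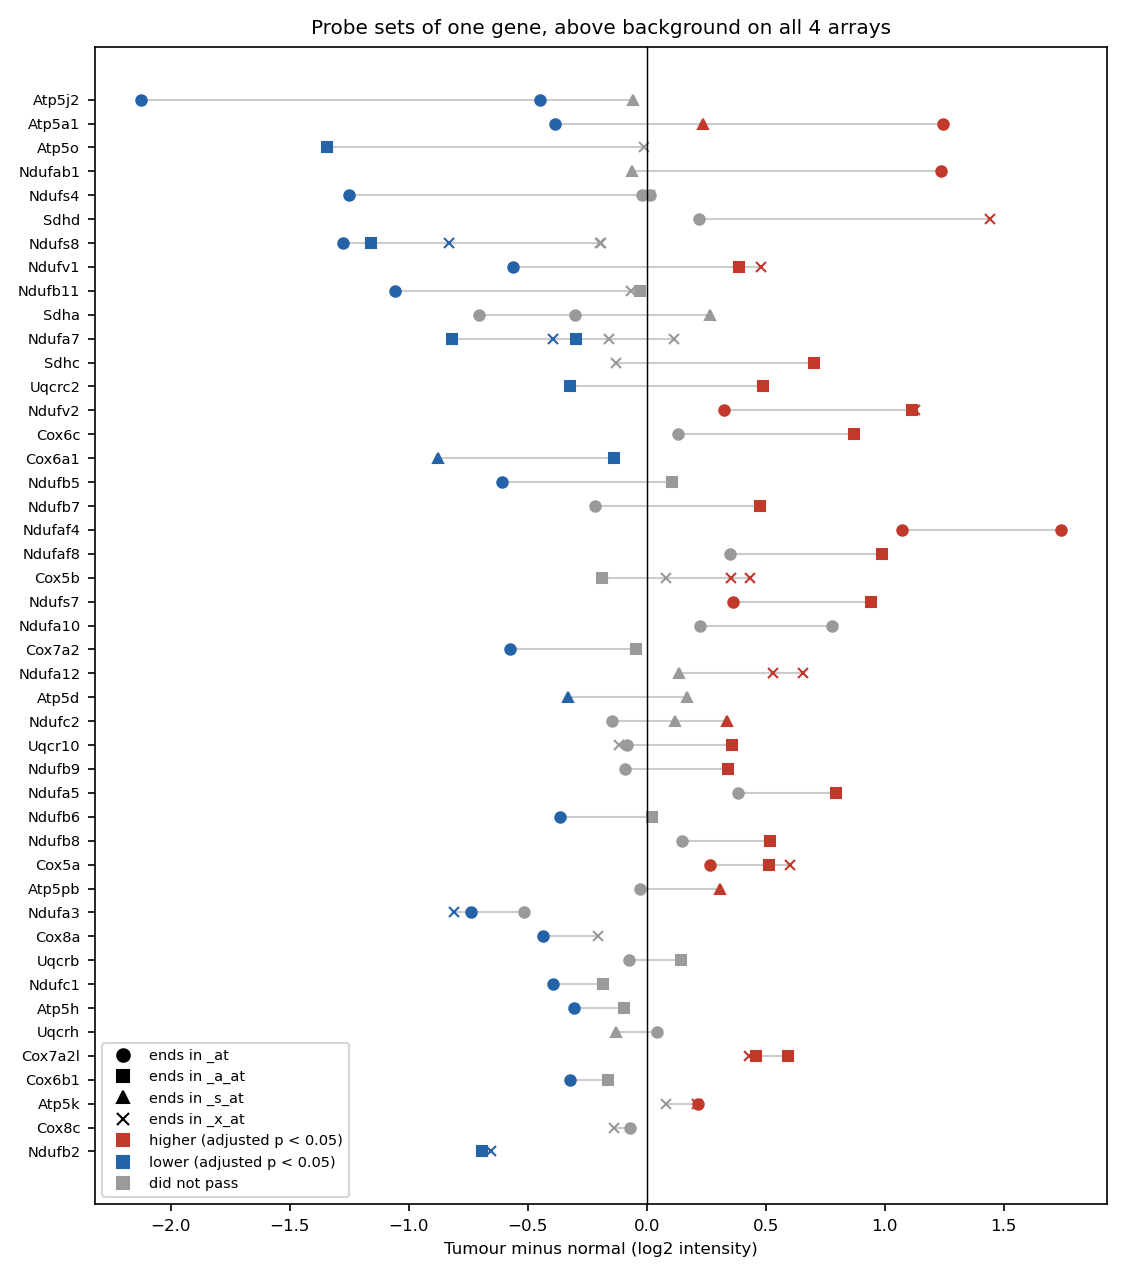
Difference in log2 intensity, tumour minus normal, for each probe set above background on all arrays, one row for each of the 45 genes with at least 2 such probe sets, with the marker showing the class of probe set and the colour its call. Horizontal spread within a row is the disagreement between probe sets of a gene, a median of 0.553 from lowest to highest.

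Genes that build, feed and regulate the complexes were read from lists. The counts of every list below stand against 17.3% of all genes that rose and 12.4% that fell. Among genes with a mean log2 of at least 10 these shares were 35% and 32.4%. Among assembly factors other than Ndufaf genes, 11 of 42 rose (26.2%) and 10 fell (23.8%), with a median of -0.01. Ttc19, which clears fragments of the Rieske protein from complex III, read 7.77 and 7.82 in normal cells and 4.46 and 5.12 in tumour cells, and fell by 3.002 ± 0.26 or 8.01-fold (adjusted p = 2.11e-05). The mean over its probe sets gave -0.74 (adjusted p = 0.1526). Cox10, which makes the heme of complex IV, rose by 1.28 ± 0.14 on its brightest probe set and differed by 0.32 as a mean over probe sets (adjusted p = 0.3981). Sco2, a copper chaperone, and Uqcc2, a complex III factor, rose by 1.00 and 0.97, and the copper-related factor Cox19 fell by 0.95. Sco2 did not pass with spike scaling (0.40). Coa7 read 6.89 and 6.98 against 5.19 and 6.38, and its fall did not pass without normal replicate 1 (adjusted p = 0.1623), normal replicate 2 (adjusted p = 0.1794) or tumour replicate 1 (adjusted p = 0.1252).

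Among 19 genes for electron carriers and ubiquinone synthesis, 9 rose and 3 fell, against 17.3% and 12.4% of all genes, with a median of 0.34. Coq4 read 5.63 and 5.65 against 7.17 and 7.58 (difference 1.73 ± 0.22), Coq2, which attaches the ring to its tail, 7.28 and 7.26 against 8.65 and 8.64 (1.38 ± 0.12), and Coq5, a methyltransferase, rose by 1.03. Dhodh, which feeds electrons from pyrimidine synthesis to ubiquinone, rose by 0.89 and was at 0.29 with spike scaling (adjusted p = 0.2863). Coq10b fell by 1.17, and Etfdh, the entry point for electrons from fatty acid oxidation, fell by 1.07. Coq5 and Etfdh did not pass as means over their probe sets (adjusted p = 0.1328 and 0.0954).

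Genes that copy and transcribe mitochondrial DNA gave 6 rises (40%) and 1 fall (6.67%) among 15, against 17.3% and 12.4% of all genes, with a median of 0.40. Twnk, the helicase, rose by 1.13 ± 0.14, and Ssbp1, the single-strand binding protein, by 0.76 ± 0.09 (0.34, adjusted p = 0.6429, as a mean over probe sets). Polg, the catalytic polymerase subunit, fell from 8.76 and 8.72 to 7.84 and 7.82, by 0.91 ± 0.11 (adjusted p = 0.0002124), while its partner Polg2 rose by 0.73 but not without normal replicate 2 (adjusted p = 0.0626) or tumour replicate 1 (adjusted p = 0.0689). Polrmt, the RNA polymerase, rose by 0.54 but not without tumour replicate 2 (adjusted p = 0.0620), and Tefm, its elongation factor, by 0.55 but not without normal replicate 1 (adjusted p = 0.1166), normal replicate 2 (adjusted p = 0.1472) or tumour replicate 1 (adjusted p = 0.2173). With spike scaling Polrmt was at -0.06 and Tefm at -0.05. Of 26 symbols for subunits encoded by mitochondrial DNA, 1 was measured: ND5, of complex I, read 12.28 and 12.19 against 11.11 and 11.05, and fell by 1.16 ± 0.07 (adjusted p = 1.582e-06).

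Nuclear regulators of these genes were split, with 3 rises (30%) and 3 falls (30%) among 10, against 17.3% and 12.4% of all genes. Nrf1, whose motif is capitalized above, read 8.28 and 8.19 in normal cells and 6.62 and 6.77 in tumour cells, and fell by 1.54 ± 0.15 (adjusted p = 4.032e-05). The coactivators Ppargc1b and Pprc1 rose by 1.46 ± 0.17 and 1.44 ± 0.21, while Ppargc1a did not pass. Of the GABP subunits that bind the ETS motif, Gabpb2 fell by 0.88 ± 0.14 and Gabpb1 fell by 0.47 ± 0.12. Gabpb1 did not pass without normal replicate 2 (adjusted p = 0.1283), tumour replicate 1 (adjusted p = 0.0813) or tumour replicate 2 (adjusted p = 0.0858), and Gabpb2 was at 0.12 as a mean over probe sets. Hcfc1, a cofactor, rose by 0.28 and did not pass without normal replicate 1 (adjusted p = 0.0954), normal replicate 2 (adjusted p = 0.1012), tumour replicate 1 (adjusted p = 0.2198) or tumour replicate 2 (adjusted p = 0.0635), with -0.32 under spike scaling.

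Genes that move ATP, ADP and metabolites across the mitochondrial membranes gave 4 rises (36.4%) and 1 fall (9.09%) among 11, against 17.3% and 12.4% of all genes. Slc25a5, an ATP and ADP exchanger, read 13.13 and 13.10 against 12.46 and 12.33, and fell by 0.72 ± 0.06 (adjusted p = 1.501e-05), while its relative Slc25a4 rose by 0.37 but not without tumour replicate 1 (adjusted p = 0.0670). The outer-membrane channels Vdac3 and Vdac1 rose by 0.52 and 0.42. Vdac1 did not pass as a mean over its probe sets (0.33, adjusted p = 0.0823), nor on its brightest probe set that binds a single transcript (0.12, adjusted p = 0.2633). Atpif1, the inhibitor of the ATP synthase, rose by 0.29, did not pass without normal replicate 2 (adjusted p = 0.0731), tumour replicate 1 (adjusted p = 0.1197) or tumour replicate 2 (adjusted p = 0.0776), and fell by 1.27 on probe sets that bind a single transcript. With spike scaling Slc25a4, Vdac3, Vdac1 and Atpif1 were at -0.23, -0.08, -0.18 and -0.31.

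The 76 mitochondrial ribosomal protein genes were about as mixed as the subunits, with 26 rises (34.2%) and 17 falls (22.4%) and a median of 0.11. The 12 enzymes of the citric acid cycle gave 6 rises (50%) and 1 fall (8.33%), with a median of 0.23. A list for the switch of respiration in low oxygen gave 5 rises (50%) and 1 fall (10%) among 10. Of all genes 17.3% rose and 12.4% fell. Epas1, the transcription factor HIF-2 alpha, read 4.72 and 6.23 in normal cells and 10.47 and 10.44 in tumour cells, a rise of 4.98 ± 0.39 (adjusted p = 2.483e-05). Egln3, an oxygen-dependent prolyl hydroxylase, rose by 1.76 ± 0.09, Higd1a, a small partner of complex IV, by 1.06 ± 0.07, and Ldha, which makes lactate, by 0.78 ± 0.06. Pdk1, which restrains pyruvate entry into the cycle, rose by 0.89 ± 0.10, and Bnip3, a mitophagy receptor, fell by 1.14 ± 0.21. Higd1a and Pdk1 were at 0.30 and -0.02 as means over their probe sets.

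**Figure D4:**
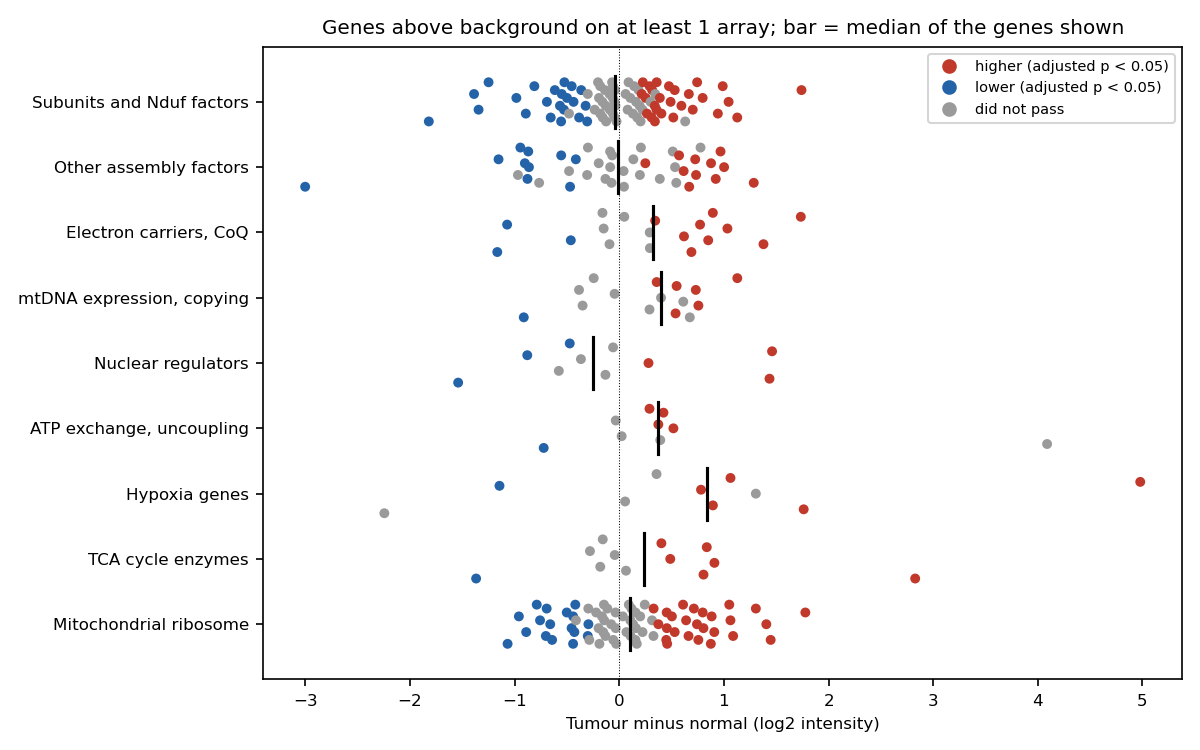
Difference in log2 intensity, tumour minus normal on the deposited scale, for each gene of the subunit set and of the related lists that lay above background on at least 1 array, one row per list, with a bar at the median of the genes drawn. The median lies at -0.04 for the 87 members drawn, 0.32 for electron carriers and ubiquinone synthesis and 0.40 for mitochondrial DNA expression. With spike scaling the median of all genes was -0.51.

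Other cells could contribute RNA to these samples. The 10 DP thymocyte markers were above background on all arrays, with 8 fallen and 1 risen and a summed intensity of 58160 to 58310 in normal and 29630 to 30050 in tumour arrays. The 12 macrophage markers summed to 118 to 163 in normal and 2214 to 2374 in tumour arrays, with 9 risen, and the 12 neutrophil markers to 215 to 276 and 2208 to 2248, with 8 risen. Of 6 erythroid markers 2 rose and 1 fell, of 7 B-cell markers 1 rose and 2 fell, and of 14 striated muscle markers, counted because complex IV has muscle forms, 0 rose and 1 fell. The part of these cells in the differences of the subunit genes was not tested, and in such bulk samples fewer cells of a type and less RNA per cell cannot be told apart.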

How the data were processed

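Per the labels, total RNA was column-purified and 100 ng were labelled by 3' in vitro transcription. The authors deposited 1 linear intensity per probe set and array (0.08 to 19270). RMA is named, with no version, in the submitters' processing notes, and no genome build or detection call was used. From the deposited intensities log2 was taken here, without offset or filter, and tested with limma 3.58.1 in R 4.3.3 (lmFit, eBayes with trend and robust prior, all 4 arrays, no covariate). The trend was used because the replicate SD fell from 1.31 in the dimmest to 0.0838 in the brightest 25% of genes. Scripts were checked on simulated data. With 2 arrays a group, the number of arrays limits the precision.

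Members and lists were chosen with earlier results of these data known. Genes were named by a rule: per complex up to 5 largest rises, 5 largest falls and the 2 smallest differences, all assembly factors, isoforms and genes with opposed probe sets, and per list up to 6 called genes. All 91 symbols matched RefSeq by Entrez number. Levels of different genes were not compared, since probes differ. Replicate numbers 1 and 2 occur in both groups, with nothing in the labels to pair them. Alternatives were the prior, scaling, filters, offset, probe-set choice, threshold, replicate block and leaving out each array.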

Additional observations from a re-analysis of the deposited data

How the results depend on the processing

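Array-median subtraction, renewed quantile normalization, an offset of 16 and filters at the 30th or 50th percentile left the member counts within 1.5 times of those reported. With limma's default prior 1 member rose and 3 fell, and 0 of the 180 probe sets passed in either direction, with 17 higher and 22 lower at an unadjusted p under 0.05. At a threshold of 0.01, 16 genes rose. Spike scaling gave 4 rises and 66 falls with a median of -0.64, and 7 and 112 probe sets. Averaging each gene's probe sets gave 15 rises. Without _x_at, _s_at and _a_at probe sets there were 12 rises, a median of -0.18 and 14 probe sets higher against 26 lower, and without _x_at and _s_at only, chosen after seeing the data, a median of -0.053 and 29 probe sets higher. Leaving out 1 array gave 16 to 19 rises, 19 to 23 falls, a median of -0.049 to 0.013, and 23 to 33 probe sets higher against 31 to 42 lower. The cause of these changes was not tested.

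Spike scaling turned the sign of Sdhd (-0.38), Uqcrc2 (-0.11), Uqcr10 (-0.24), Uqcrq (-0.35), Cox7a2l (-0.0075), Cox5b (-0.25), Cox5a (-0.34), Cox4i1 (-0.44), Atp5l (-0.20), Atp5g1 (-0.29), Atp5g2 (-0.52), Atp5pb (-0.29), Atp5k (-0.39), Ndufv1 (-0.21), Tefm (-0.053), Polrmt (-0.063), Hcfc1 (-0.32), Vdac3 (-0.084), Vdac1 (-0.18), Slc25a4 (-0.23) and Atpif1 (-0.31). The mean of probe sets turned Cox5b (-0.30), Atp5a1 (0.37), Gabpb2 (0.12), Hcfc1 (-0.24), Atpif1 (-0.26) and Pdk1 (-0.021). Without _x_at, _s_at and _a_at probe sets Uqcr10 (-0.085), Uqcrq (-0.86), Cox5b (-1.06), Atp5pb (-0.026), Ndufv1 (-0.56) and Atpif1 (-1.27) turned, and with _a_at kept, Uqcrq (-0.86), Cox5b (-0.19) and Atp5pb (-0.026). The _at probe sets behind Cox5b (-1.06) and Uqcrq (-0.86) lie near or below background, so these values show no reversal.

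Nothing in the labels pairs the replicate numbers. Within-group differences of the 2 groups correlated at r = 0.0119 across all genes and 0.25 across the 6364 with a mean log2 of at least 7, and genes are not independent replicates. Replicate 1 had the higher background intensity in both groups, 15.95 against 12.28 in normal and 17.8 against 13.32 in tumour arrays. Whether the numbers mark a pairing was not tested. With the replicate number as a block 33 member genes rose and 30 fell, and 52 and 53 probe sets. The shares of all genes called with the block are not given here, so these counts are not read as a trait of the members. The block also called Sdha, Cox6a1 and Cox6b1 lower and Sdhd and Cox4i1 higher.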
